A study of Mus musculus with 20 samples.

Results

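The genes described here are the amyloid precursor gene App, its relatives Aplp1 and Aplp2, the secretase genes Bace1 and Psen2, the lipoprotein genes Apoe and Clu, and the tau gene Mapt. The rule names them by symbol and uses no measured value, though they were chosen with earlier results of these data known. A probe belonged to a gene when the RefSeq transcript that the array files give for it belonged to that gene, which found 10 probes for the 8 genes, out of 55681 non-control probes and 20972 named genes on the array. Mapt had 3 probes and each other gene had 1, so for Mapt the brightest probe stands for the gene and the others are given beside it. All 10 probes were well above background on 20 of 20 arrays, none was saturated, and all 10 passed the filter on dim probes.

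Gene expression was measured in the brains of male C57BL/6J mice on one-colour Agilent arrays, 1 mouse per array, with 5 mice in each of 4 groups. All mice carried a tetracycline-binding protein that the GFAP promoter directs to astrocytes, and all received doxycycline at 100 mg/kg daily for 7 days. Tat+ mice also carried the HIV-1 Tat transgene, which doxycycline induces, and Tat− mice did not. Mice received methamphetamine (Meth) at 2 mg/kg or 0.9% saline daily for the same 7 days, which gave a saline (Tat−/Sal) and a Meth group (Tat−/Meth) without the transgene and the same pair with it (Tat+/Sal and Tat+/Meth). The labels give an age of 6 to 7 weeks and tissue of the left hemisphere taken 24 h after the last injection. The study's methods instead name the caudate putamen of older mice, and a Meth challenge given to every mouse, saline groups included, after a drug-free interval. All 8 striatal marker genes (such as Drd1, Drd2 and Penk) were well above background in every group, with a summed scaled log2 level between 19.74 and 20.13. Of the 6 cortical and hippocampal markers only 3 or 4 were well above background on all arrays of a group. Their summed level was between 8.75 and 11.39. Its mean was highest in Tat−/Sal, 10.20, against 9.59 in Tat−/Meth, 9.42 in Tat+/Sal and 9.19 in Tat+/Meth, with overlapping arrays. The part of this difference in the comparisons below was not tested. Levels of different probes do not compare, so the sums of different lists are not set against each other. The 4 choroid plexus markers, which can enter with dissected tissue next to a ventricle, summed to between 12.00 and 14.06.

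The App protein is a membrane protein of neurons and other cells. Cutting by an alpha-secretase of the ADAM family releases a soluble fragment, whereas cutting by the beta-secretase that Bace1 encodes, followed by the gamma-secretase complex, in which Psen2 encodes a catalytic presenilin, yields amyloid-beta. Aplp1 and Aplp2 encode relatives of App that lack the amyloid-beta stretch and are cut by the same classes of enzyme. Apoe and Clu encode secreted lipoproteins made mainly by astrocytes in the brain, which bind amyloid-beta, and Mapt encodes tau, a microtubule-associated protein of axons. The comparisons below ask whether Meth changed these genes with and without Tat, and whether Tat changed them with and without Meth.

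Because the 3 genes of the App family differed in their response below, the 250 bases before a transcription start of each are shown, from RefSeq (GRCm38.p6). Each is read 5′ to 3′ on the gene's strand, the minus strand in all 3, and the capitals mark GGGCGG, the GC box, on the strand printed or as its complement on the other. App is at chr16:85173708-85173957, Aplp1 at chr7:30445583-30445832 and Aplp2 at chr9:31211849-31212098. The Aplp1 and Aplp2 windows adjoin the outer end of their genes. The App window lies inside the span of the gene (chr16:84952666-85175255), so it does not precede the outermost start of App.
App: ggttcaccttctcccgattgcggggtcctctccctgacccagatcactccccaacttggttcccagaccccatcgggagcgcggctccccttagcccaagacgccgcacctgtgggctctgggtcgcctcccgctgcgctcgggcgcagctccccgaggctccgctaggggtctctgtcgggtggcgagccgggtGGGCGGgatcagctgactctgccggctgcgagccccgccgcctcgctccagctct
Aplp1: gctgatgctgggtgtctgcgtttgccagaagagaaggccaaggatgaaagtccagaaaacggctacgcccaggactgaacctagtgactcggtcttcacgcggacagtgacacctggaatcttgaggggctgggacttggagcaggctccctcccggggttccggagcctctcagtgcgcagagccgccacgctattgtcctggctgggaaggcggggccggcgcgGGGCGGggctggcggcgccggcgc
Aplp2: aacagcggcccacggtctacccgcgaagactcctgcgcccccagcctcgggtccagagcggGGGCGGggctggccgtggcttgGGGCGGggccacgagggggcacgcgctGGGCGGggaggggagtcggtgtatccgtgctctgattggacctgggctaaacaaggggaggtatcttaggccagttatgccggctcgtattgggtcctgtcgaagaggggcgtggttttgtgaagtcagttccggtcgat
The App and Aplp1 windows each held 1 GC box and the Aplp2 window held 3, against 32.7% of all 32851 mouse windows of this length with at least 1. No window of the 3 held TATAAA (12.4% of all windows), the AP-1 motif TGANTCA (6.75%), the CRE motif TGACGTCA (1.55%) or the E-box CACGTG (6.02%), all searched on both strands. GC content was 70.8% for App, 66.0% for Aplp1 and 66.4% for Aplp2. A match or its absence describes these letters only. Of the 8 genes, 5 had a window in the table.

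The arrays lay on 3 slides, and this bears on every value for Meth in Tat− mice. Slide 1 held the 5 Tat−/Meth arrays and nothing else, slide 2 held the 5 Tat−/Sal arrays with Tat+/Meth mice 1 to 3, and slide 3 held Tat+/Meth mice 4 and 5 with the 5 Tat+/Sal arrays. In any comparison with Tat−/Meth, slide and group cannot be told apart. The Tat−/Meth arrays were also dimmer, with a 75th percentile of log2 intensity between 9.64 and 9.79 against 9.75 to 10.33 on the other 15 arrays. Values are given as log2 intensity scaled to each array's 75th percentile, with the unscaled value where it changes a statement. The median change over all probes tested in Tat−/Meth against Tat−/Sal was 0.10 with this scaling, -0.33 with none, 0.22 with median scaling and 0.11 with quantile normalization. For Tat+/Meth against Tat−/Meth these medians were -0.09, 0.25, -0.26 and -0.12. Of the probes that passed in Tat−/Meth against Tat−/Sal, 44.2% were lower with the 75th percentile and 97.8% without scaling.

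Small changes in both directions were seen among the 8 genes when Meth was given without Tat, and none was 2-fold. Relative to Tat−/Sal, Tat−/Meth mice had lower Aplp2 and Mapt (brightest probe) and higher Bace1 and Clu, while App, Aplp1, Psen2 and Apoe did not pass the test (limma, Benjamini-Hochberg adjusted p under 0.05 over all 31516 probes tested). This is 4 of 8 genes, and 50.3% of all probes passed in the same comparison, so the share among these genes is near that of the whole array. When Meth was given to Tat+ mice, 0 of 8 genes passed by limma against Tat+/Sal, where 0% of all probes passed, and 0 of 8 had an unadjusted p under 0.05 by limma or by the methods' t-test. Tat alone (Tat+/Sal against Tat−/Sal) also passed in 0 of 8 genes, against 0.708% of all probes, with 3 of 8 (Aplp1, Apoe and Clu) at an unadjusted p under 0.05 by either tool. Between Tat+/Meth and Tat−/Meth 3 of 8 genes passed, against 53.5% of all probes. Tat and Meth together against Tat−/Sal passed in 0 of 8 genes, against 0.00317% of all probes, with 2 of 8 (App and Apoe) at an unadjusted p under 0.05 by limma and 3 of 8 by the methods' t-test.

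No gene of the 8 changed 2-fold in any comparison, while 11.6% of all probes passed with a change above 2-fold for Meth in Tat− mice, 12% between Tat+/Meth and Tat−/Meth, 12.4% for the interaction and 0.0444% for Tat alone. At an unadjusted p under 0.05 by limma, 5 of 8 genes stood beside 56.4% of all probes for Meth in Tat− mice, 4 of 8 beside 58.6% between Tat+/Meth and Tat−/Meth, and 5 of 8 beside 45.6% for the interaction. The same count was 3 of 8 beside 16.6% for Tat alone, 2 of 8 beside 6.31% for Tat and Meth together against Tat−/Sal, and 0 of 8 beside 11.5% for Meth in Tat+ mice. The arrays of the groups did not overlap for 3 of 8 genes with Meth in Tat− mice (Aplp2, Bace1 and Clu), beside 36.6% of all probes, and for 2 of 8 between Tat+/Meth and Tat−/Meth (Aplp2 and Bace1), beside 37.2%. They overlapped for all 8 genes with Meth in Tat+ mice, with Tat alone and with both against Tat−/Sal, where 2.2%, 4.53% and 1.58% of all probes did not overlap.

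**Figure D1:**
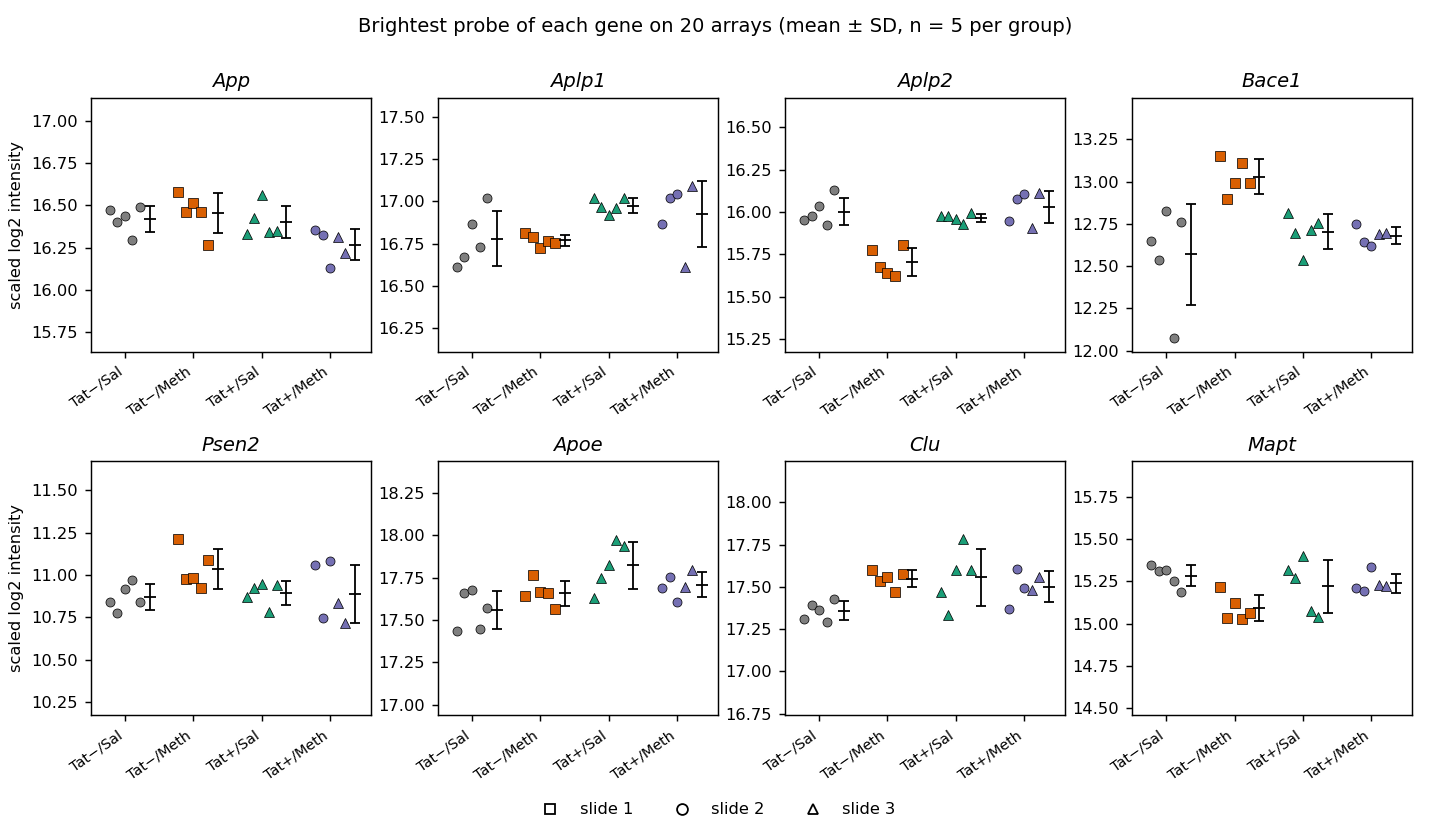
Scaled log2 intensity (y axis, a log scale spanning the same 1.5 units in each panel) of the brightest probe of the 8 genes in the 4 groups; each point is 1 array, its shape the slide, and the bars are the mean ± SD (n = 5). Aplp2 is lower (15.62 to 15.81) and Bace1 higher (12.90 to 13.15) on every Tat−/Meth array than on any array of the other 3 groups.

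App moved little between the groups. Its scaled log2 level in Tat−/Sal mice 1 to 5 was 16.48, 16.40, 16.44, 16.29 and 16.49. In Tat−/Meth mice it was 16.58, 16.46, 16.51, 16.46 and 16.27. In Tat+/Sal mice it was 16.33, 16.43, 16.56, 16.34 and 16.35, and in Tat+/Meth mice 16.35, 16.32, 16.13, 16.31 and 16.22. The first 3 of these groups overlapped throughout, and the Tat+/Meth arrays took up the lower end of the range. In order, the group means were 16.46 ± 0.12 for Tat−/Meth mice, 16.42 ± 0.08 for Tat−/Sal, then 16.40 ± 0.10 for Tat+/Sal and 16.27 ± 0.09 for Tat+/Meth (SD, n = 5), and no neighbours in this order were separated.

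Meth without Tat changed App by 0.04 ± 0.07 (log2, SE; 95% interval -0.10 to 0.18; adjusted p = 0.672, limma). On the unscaled intensities App was at -0.38 (adjusted p = 0.00331), close to the unscaled median of all probes of -0.33. The unscaled levels of 15.91 to 16.35 in Tat−/Meth lay below those of 16.43 to 16.73 in Tat−/Sal. A fall of App with Meth in Tat− mice was therefore seen without scaling and not with the 75th percentile, and with quantile normalization App was higher, at 0.22 (adjusted p = 0.00924). In Tat+ mice the change with Meth was -0.14 ± 0.07 (95% interval -0.28 to 0.01; adjusted p = 0.45). Tat alone changed App by -0.02 ± 0.07 (adjusted p = 0.927).

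Under Meth, App was lower in Tat+ than in Tat− mice by 0.19 ± 0.07 on the log2 scale (1.14-fold; adjusted p = 0.0239, limma), with the arrays overlapping. This call was lost in 4 of the 20 fits that left out 1 array each (Tat−/Meth 1 or 3, Tat+/Meth 3 or 5; adjusted p from 0.0503 to 0.070), with median scaling (adjusted p = 0.128), with normexp background correction (0.0593) and when only these groups were fitted (0.054), and unscaled App was higher, at 0.15 (adjusted p = 0.25). The 2 slides that held Tat+/Meth with another group did not hold Tat−/Meth, so they do not bear on this difference. App in Tat+/Meth was 0.15 below Tat−/Sal on slide 2 (3 Tat+/Meth arrays) and 0.14 below Tat+/Sal on slide 3 (2 arrays). Over all arrays neither of those comparisons passed (adjusted p = 0.778 and 0.45, limma). The difference between the responses to Meth in Tat+ and Tat− mice, the interaction, was -0.17 ± 0.09 for App (adjusted p = 0.169).

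Aplp2 gave the clearest result of the family. Its scaled log2 level was 15.95, 15.97, 16.03, 15.93 and 16.13 in Tat−/Sal mice. In Tat−/Meth mice it was 15.78, 15.67, 15.64, 15.62 and 15.81. The 5 Tat−/Meth values all lay below the 15 others, of which those of Tat+/Sal were 15.93 to 15.99 and those of Tat+/Meth 15.91 to 16.11. Aplp2 fell by 0.30 ± 0.06 (log2, SE; 1.23-fold) with Meth in Tat− mice (adjusted p = 0.000261) and was higher by 0.33 ± 0.06 in Tat+/Meth than in Tat−/Meth (adjusted p = 0.000104). With Meth in Tat+ mice it changed by 0.06 ± 0.06 (adjusted p = 0.705), and the interaction of 0.36 ± 0.08 passed (adjusted p = 0.00165), where 37% of all probes did. These 3 calls held in 20 of 20 fits that left out 1 array each. The change of Aplp2 in Tat−/Meth against Tat−/Sal was negative with no scaling (-0.72), median scaling (-0.18) and quantile normalization (-0.18), but with median scaling it did not pass (adjusted p = 0.377). The size of the median-scaled change rests on Tat−/Meth mouse 5, at 15.09 with that scaling. Mice 1 to 4, at 15.83 to 16.18, overlapped Tat−/Sal, at 15.88 to 16.08. Median scaling also ended the call between Tat+/Meth and Tat−/Meth (0.17, adjusted p = 0.39, limma) and that of the interaction (0.13, adjusted p = 0.659). The summed level of 4 neuronal markers was also lower, at 17.62 to 17.82 in Tat−/Meth against 17.94 to 18.23 in Tat−/Sal. Of the 4, 1 (by its brightest probe) passed as lower, beside 15.1% of all genes. Their median change was -0.0035, so the markers did not fall as a set. The part of neuronal RNA in the Aplp2 result was not tested, and in tissue RNA fewer cells of a type and less RNA per cell cannot be told apart.

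Aplp1 did not differ between the Tat− groups beyond their spread. It was 16.61, 16.67, 16.87, 16.73 and 17.02 in Tat−/Sal and 16.81, 16.79, 16.72, 16.77 and 16.75 in Tat−/Meth, with a change of -0.01 ± 0.08 (adjusted p = 0.926). The Tat+ groups were at 16.92 to 17.02 with saline and at 16.61 to 17.09 with Meth. The Tat+/Sal values all lay above those of Tat−/Meth, and the other pairs of groups overlapped. Tat alone changed Aplp1 by 0.20 ± 0.08 (unadjusted p = 0.0334, adjusted p = 0.256, limma), which did not pass. Unscaled, Aplp1 was -0.43 with Meth in Tat− mice (adjusted p = 0.000642). Across the 20 arrays, with group means removed, Aplp1 and Aplp2 varied together (Pearson's r = 0.79) while App did not vary with either (r = -0.14 and -0.19). Arrays share their scaling and slides, so these values describe the arrays only.

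A difference between 2 probes on the same array is not changed by scaling the array by 1 factor, although quantile normalization can change it, and these differences were added after the values had been seen. App minus Aplp2 in log2 intensity was 0.36 to 0.52 in Tat−/Sal and 0.46 to 0.87 in Tat−/Meth, while the Tat+ mice had 0.36 to 0.60 with saline and 0.03 to 0.41 with Meth. The Tat−/Meth mean was the highest, 0.75 ± 0.17 against 0.42 ± 0.07 in Tat−/Sal (SD, n = 5), but Tat−/Meth mouse 5, at 0.46, lay within the Tat−/Sal range. Aplp1 minus Aplp2 was 0.95 to 1.15 in Tat−/Meth and 0.66 to 0.89 in Tat−/Sal, without overlap. In the Tat+ mice it was 0.96 to 1.04 with saline, also above Tat−/Sal and inside the Tat−/Meth range, and 0.70 to 0.98 with Meth, so this difference did not set Tat−/Meth apart from the Tat+ groups.

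**Figure D2:**
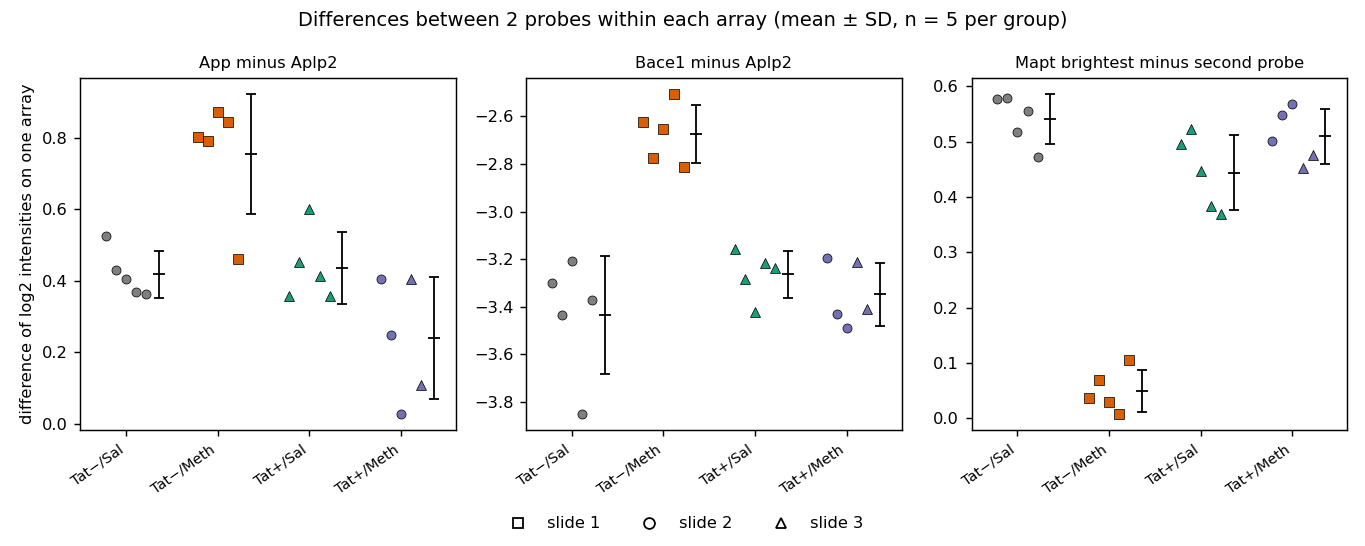
Difference between the log2 intensities of 2 probes on the same array (y axis) in the 4 groups, for App minus Aplp2, Bace1 minus Aplp2 and the brightest minus the second Mapt probe; each point is 1 array, its shape the slide, and the bars are the mean ± SD (n = 5). The Mapt difference is 0.01 to 0.10 in Tat−/Meth and 0.37 to 0.58 in the other 3 groups.

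Bace1, the beta-secretase gene, had the largest rise of the 8 genes with the 75th percentile scaling, while with quantile normalization Clu (0.47) and Apoe (0.41) rose by as much or more than Bace1 (0.41). Its scaled log2 level was 12.65, 12.54, 12.82, 12.08 and 12.76 in Tat−/Sal. In Tat−/Meth it was 13.15, 12.90, 12.99, 13.11 and 12.99, above every array of the other groups. Tat+/Sal lay at 12.54 to 12.82 and Tat+/Meth at 12.62 to 12.75, which overlapped each other and Tat−/Sal. The rise with Meth in Tat− mice was 0.46 ± 0.11 (1.37-fold; 95% interval 0.24 to 0.68; adjusted p = 0.00143, limma), and Bace1 was lower in Tat+/Meth than in Tat−/Meth by 0.35 ± 0.11 (adjusted p = 0.00957). In Tat+ mice Meth changed it by -0.02 ± 0.11 (adjusted p = 0.958), and the interaction was -0.48 ± 0.15 (adjusted p = 0.0161). Tat−/Sal mouse 4, at 12.08, was low, and without it the rise was 0.34 and still passed.

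Without scaling, Bace1 changed by 0.04 with Meth in Tat− mice (adjusted p = 0.826), while the median probe was at -0.33, and by -0.01 between Tat+/Meth and Tat−/Meth (adjusted p = 0.959). The difference between Bace1 and Aplp2 within an array, in unscaled log2 intensity, was -2.81 to -2.51 in Tat−/Meth and -3.85 to -3.16 in the other 3 groups, without overlap. On the scaled levels every Tat−/Meth array already lay above all others for Bace1 and below them for Aplp2. The separation had to follow, so it restates those values and is no added evidence. Group and slide cannot be told apart here either. Bace1 minus App was -3.57 to -3.28 in Tat−/Meth and -4.22 to -3.61 in Tat−/Sal, also without overlap, but the Tat+ groups, at -4.02 to -3.52 with saline and -3.68 to -3.52 with Meth, overlapped Tat−/Meth. Relative to App, Bace1 was thus separated from Tat−/Sal and not from the Tat+ groups.

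Psen2, which encodes a catalytic subunit of gamma-secretase, passed in no comparison. Its level was 10.84, 10.77, 10.92, 10.97 and 10.84 in Tat−/Sal and 11.21, 10.98, 10.98, 10.92 and 11.09 in Tat−/Meth, and these groups overlapped. The change of 0.17 ± 0.08 did not pass (adjusted p = 0.078, limma), and without scaling it was -0.25 (adjusted p = 0.0914). The Tat+ groups were at 10.78 to 10.95 with saline and 10.71 to 11.08 with Meth, a change of -0.01 ± 0.08 (adjusted p = 0.984).

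**Figure D3:**
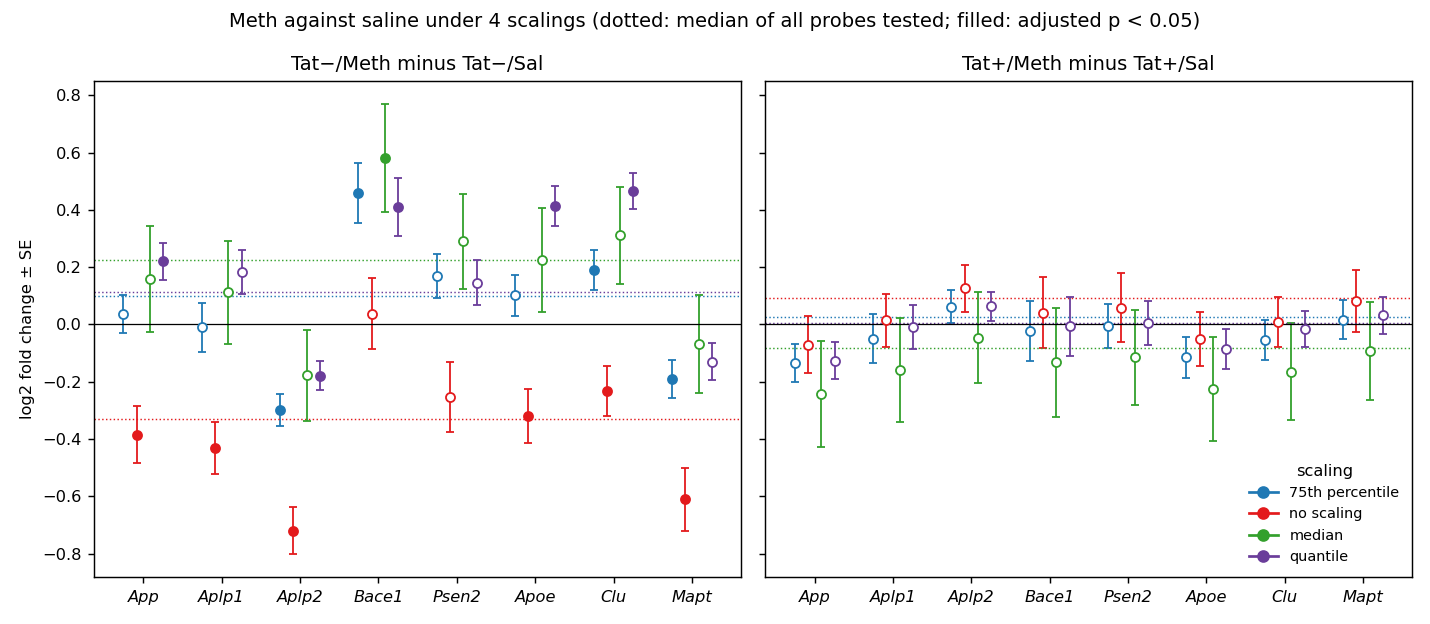
Log2 fold change ± SE (y axis) of the 8 genes for Meth against saline, in Tat− mice (left) and Tat+ mice (right), under 4 scalings of the same intensities; dotted lines are the median of all probes tested, and filled points have an adjusted p under 0.05. On the left Aplp2 and Mapt are below 0 and Bace1 above 0 under each of the 4, whereas App, Aplp1, Psen2, Apoe and Clu change sides between scalings. The median-scaled points of Aplp2 and Mapt are pulled down by Tat−/Meth array 5. It is at 15.09 and 14.35 there, against 15.83 to 16.18 and 15.29 to 15.62 on Tat−/Meth arrays 1 to 4. On the right no point is filled.

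Of the lipoprotein genes, Clu passed in a single comparison and Apoe in none. Clu was 17.31, 17.39, 17.37, 17.29 and 17.43 in Tat−/Sal and 17.60, 17.53, 17.56, 17.47 and 17.58 in Tat−/Meth, without overlap. Tat+/Sal spread from 17.33 to 17.78 and Tat+/Meth from 17.37 to 17.61, which overlapped both. Clu rose by 0.19 ± 0.07 with Meth in Tat− mice (1.14-fold; adjusted p = 0.0315, limma). The call was lost in 5 of 20 fits that left out 1 array (Tat−/Meth 1, 3 or 5, Tat−/Sal 1 or 4; adjusted p from 0.0539 to 0.0697) and with median scaling (adjusted p = 0.147), normexp background correction (0.174) and the processed table (0.0799), and without scaling Clu was lower, at -0.23 (adjusted p = 0.0311). With Meth in Tat+ mice Clu changed by -0.06 ± 0.07 (adjusted p = 0.796), and the interaction of -0.25 ± 0.10 did not pass (adjusted p = 0.0595).

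Apoe was 17.43, 17.66, 17.68, 17.45 and 17.57 in Tat−/Sal and 17.63, 17.75, 17.83, 17.97 and 17.94 in Tat+/Sal, with 1 Tat+ mouse inside the Tat− range. Tat alone gave its largest difference, 0.27 ± 0.07 (1.20-fold; unadjusted p = 0.00139, adjusted p = 0.0781, limma), which did not pass. It passed without Tat+/Sal mouse 1 (0.31, adjusted p = 0.046), and the 2 groups lie on different slides. Tat−/Meth was at 17.56 to 17.77 and Tat+/Meth at 17.60 to 17.80, so Apoe changed with Meth by 0.10 ± 0.07 without Tat (adjusted p = 0.24) and by -0.12 ± 0.07 with Tat (adjusted p = 0.546). Without scaling it was -0.32 in Tat−/Meth against Tat−/Sal (adjusted p = 0.00813), and with quantile normalization 0.41 (adjusted p = 8.52e-05). Apoe and Clu varied together within groups (r = 0.59 over 20 arrays).

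Because both genes are astrocyte genes, the astrocyte markers stand beside them. Of 7 astrocyte markers, such as Gfap, Aqp4 and Gja1, 4 passed as higher and 0 as lower when Tat−/Meth was set against Tat−/Sal, with a median change of 0.25 that became -0.17 without scaling. Over the brightest probes of all genes tested, 34.3% were higher and 15.1% lower, with a median of 0.14, and counts over 7 genes are small. The summed level of the astrocyte markers was 16.61 to 16.87 in Tat−/Meth against 16.38 to 16.56 in Tat−/Sal, 16.33 to 16.60 in Tat+/Sal and 16.35 to 16.54 in Tat+/Meth. The part of astrocyte RNA in the Clu and Apoe values was not tested. The 7 oligodendrocyte markers summed to 17.94 to 18.34 in Tat−/Sal and 18.10 to 18.47 in Tat−/Meth, and the 6 microglial markers to 15.65 to 15.85 and 15.68 to 15.78, both overlapping.

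The 3 probes of Mapt did not move together. The brightest (A_55_P2100149) was 15.35, 15.31, 15.32, 15.25 and 15.19 in Tat−/Sal and 15.22, 15.03, 15.12, 15.03 and 15.06 in Tat−/Meth, where the groups overlapped on 1 array each. It fell by 0.19 ± 0.07 with Meth in Tat− mice (adjusted p = 0.0249, limma), a call lost in 3 of 20 fits that left out 1 array (Tat−/Meth 2 or 4, Tat−/Sal 1; adjusted p from 0.0557 to 0.0581), with median scaling (adjusted p = 0.762) and with quantile normalization (0.103). The second probe (A_55_P1954486), assigned to another RefSeq transcript of the gene, was 14.77, 14.73, 14.80, 14.69 and 14.72 in Tat−/Sal and 15.18, 14.96, 15.09, 15.02 and 14.96 in Tat−/Meth, without overlap. It rose by 0.30 ± 0.06 (adjusted p = 0.000385). Probes of Mapt therefore passed in opposite directions, as did probes of 8.59% of the 3898 genes with several probes tested in that comparison.

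In Tat+ mice neither of these probes passed with Meth. Without scaling the second probe was at -0.12 with Meth in Tat− mice (adjusted p = 0.336). The brightest changed by 0.02 ± 0.07 (adjusted p = 0.952) and the second by -0.05 ± 0.06 (adjusted p = 0.791). Between Tat+/Meth and Tat−/Meth the brightest was at 0.15 ± 0.07 (adjusted p = 0.0766), which did not pass, and the second was lower by 0.31 ± 0.06 (adjusted p = 0.000226). The interaction was -0.35 ± 0.08 for the second probe (adjusted p = 0.00307) and 0.21 ± 0.09 for the brightest (adjusted p = 0.0969). The third probe (A_55_P2100155), assigned to the same transcript as the brightest, spread most, from 13.45 to 14.79 in Tat−/Sal, and passed in no comparison. Its low arrays came from all 4 groups.

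Within an array, the brightest minus the second Mapt probe was 0.01 to 0.10 in Tat−/Meth, against 0.47 to 0.58 in Tat−/Sal, and the Tat+ mice had 0.37 to 0.52 with saline and 0.45 to 0.57 with Meth. Scaling an array by 1 factor leaves this difference as it is, and the Tat−/Meth arrays were separated from all 15 others. The sequences of the probes were not used here, so which exons each probe covers is not given. No direction of Mapt with Meth can be stated for the gene as a whole.

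**Figure D4:**
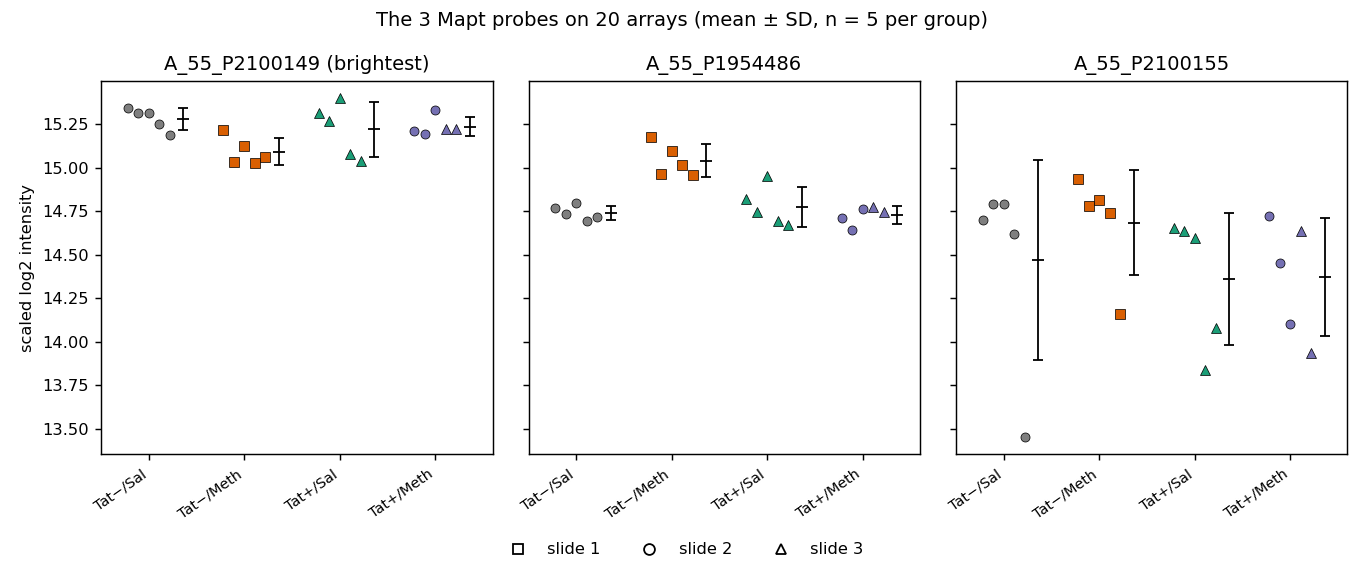
Scaled log2 intensity (y axis) of the 3 Mapt probes in the 4 groups; each point is 1 array, its shape the slide, and the bars are the mean ± SD (n = 5). In Tat−/Meth the brightest probe is lower (15.03 to 15.22) and the second higher (14.96 to 15.18) than in Tat−/Sal, and the third has 1 or more low arrays in every group.

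Genes that act with these 8 were followed in 6 lists, 58 genes in all, of which 57 were tested. With Meth in Tat− mice, 24 were higher and 5 lower, beside 28.1% of all probes higher and 22.2% lower, with a median change of 0.16 against 0.10 for all probes. The lists use the brightest probe of each gene, and over the brightest probes of all 15102 genes tested 34.3% were higher and 15.1% lower, with a median of 0.14, so the lists lay near all genes. With Meth in Tat+ mice 0 of 57 passed (median -0.01), and 0 of 57 passed with Tat alone or with Tat and Meth together against Tat−/Sal. Between Tat+/Meth and Tat−/Meth 4 were higher and 24 lower (median -0.14), beside 23.2% and 30.3% of all probes and 15.7% and 37.7% of all genes (median -0.15), and in the interaction 3 were positive and 14 negative (median -0.17), beside 19% and 18.1% of all probes and 12.3% and 23% of all genes (median -0.14). These comparisons share the Tat−/Meth arrays, so they do not count as separate evidence. Every direction below is for the 75th percentile scaling. Without scaling the median of each list was below 0 in Tat−/Meth against Tat−/Sal (-0.34 to -0.08), and between Tat+/Meth and Tat−/Meth it was above 0 (0.06 to 0.33) except for the degrading enzymes (-0.04). Of the 39 calls given below for single genes of the lists, 35 were lost or turned without scaling, 16 were lost with median scaling, 6 with normexp background correction, 3 with quantile normalization and 3 with the processed table. With 1 array left out, 36 of the 39 passed in all 20 fits, the exceptions being Rtn3, Lrp8 and Adam10.

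Among the other secretase genes 5 of 8 passed as higher and 0 as lower with Meth in Tat− mice (median 0.28), beside the 34.3% of all genes that were higher, and counts over 8 genes are small. Aph1b, a subunit of gamma-secretase, was higher by 0.39 ± 0.09 (adjusted p = 0.00125), Bace2, the relative of Bace1, by 0.57 ± 0.14 (adjusted p = 0.00227), and the alpha-secretase gene Adam17 by 0.60 ± 0.16 (adjusted p = 0.00506). Without scaling these changes were -0.03, 0.14 and 0.18. Against Tat−/Meth, 5 of 8 were lower in Tat+/Meth, beside 37.7% of all genes, with Aph1b at -0.50 ± 0.09 (adjusted p = 0.000103), Bace2 at -0.66 ± 0.14 (adjusted p = 0.00055) and the gamma-secretase subunit Ncstn at -0.42 ± 0.13 (adjusted p = 0.00942; above background on 15 of the 20 arrays). The interaction was -0.62 ± 0.19 for Bace2 (adjusted p = 0.0177) and -0.26 ± 0.09 for Adam10, the other main alpha-secretase gene (adjusted p = 0.0324). The Adam10 call failed in 8 of the 20 fits that each omitted 1 array and under all 5 other scalings, background corrections and source tables (adjusted p from 0.0653 to 0.166).

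Adaptors and trafficking proteins of App moved both ways with Meth in Tat− mice, 4 of 11 higher and 3 lower, beside 34.3% and 15.1% of all genes. Apbb1, which encodes the adaptor Fe65 that binds the tail of App, was higher by 0.62 ± 0.11 (adjusted p = 0.000133), and it was at 0.20 without scaling, where it did not pass (adjusted p = 0.337). Apba1, another adaptor, was higher by 0.25 ± 0.07 (adjusted p = 0.00427) and Rtn3, a reticulon that binds Bace1, by 0.26 ± 0.10 (adjusted p = 0.0463), both being -0.17 and -0.16 without scaling. The Rtn3 call failed in 11 of the 20 fits that each omitted 1 array (adjusted p from 0.0505 to 0.104) and with median scaling, quantile normalization, normexp and the processed table (0.0508 to 0.108). In Tat+/Meth against Tat−/Meth 3 of 11 were higher and 5 lower, beside 15.7% and 37.7% of all genes. There Apbb1 was at -0.71 ± 0.11 (adjusted p = 3.1e-05), the sorting receptor gene Sort1 at -0.32 ± 0.08 (adjusted p = 0.00143) and Apba1 at -0.28 ± 0.07 (adjusted p = 0.00147). The interaction passed at -0.86 ± 0.15 for Apbb1 (adjusted p = 0.000269), 0.44 ± 0.13 for the sorting receptor gene Sorl1 (adjusted p = 0.0127) and -0.35 ± 0.11 for Apbb2 (adjusted p = 0.0216). The Apbb2 call was lost with the mean over its probes (-0.15, adjusted p = 0.18, limma).

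**Figure D5:**
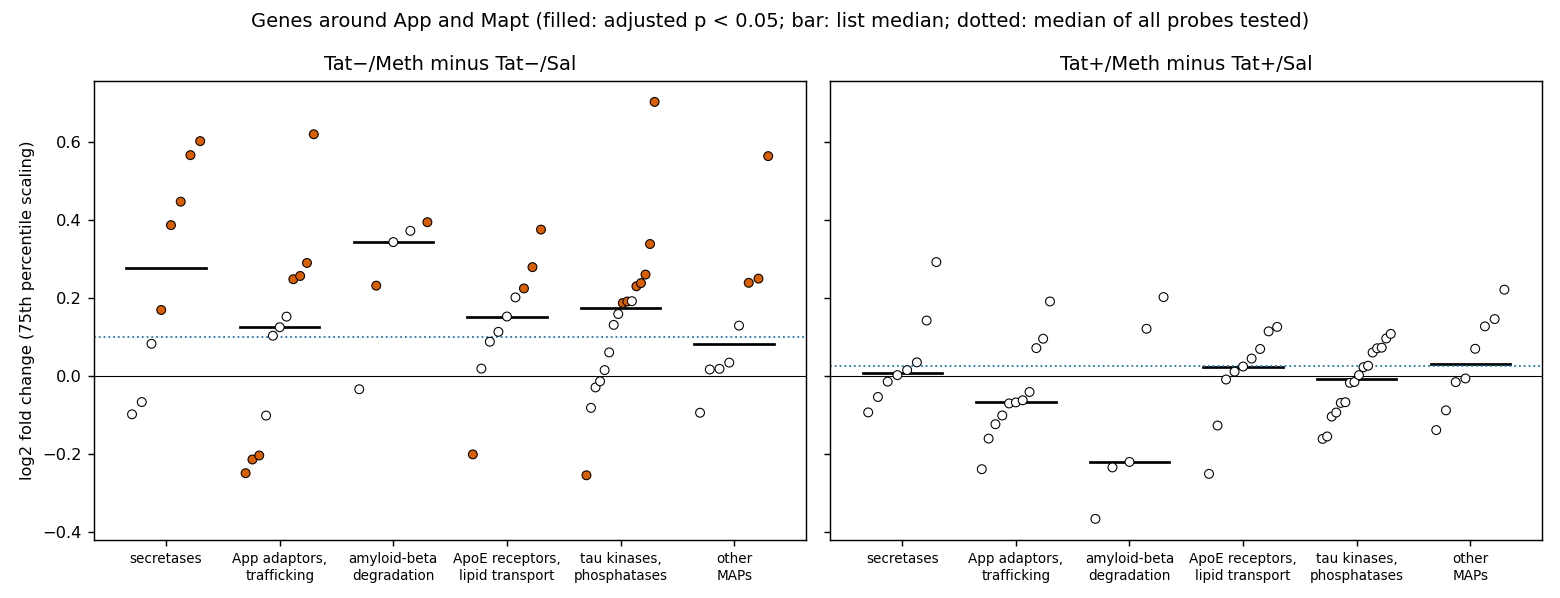
Log2 fold change (y axis, 75th percentile scaling) of the genes of 6 lists for Meth against saline, in Tat− mice (left) and Tat+ mice (right); each point is the brightest probe of 1 gene, filled where the adjusted p is under 0.05, the bar is the median of the list and the dotted line the median of all probes tested. On the left 24 points are filled above 0 and 5 below; on the right none is filled.

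Of 5 enzymes that degrade amyloid-beta, 2 were higher with Meth in Tat− mice and 0 lower, beside 34.3% and 15.1% of all genes. Pitrm1, a mitochondrial peptidase, was higher by 0.23 ± 0.07 (adjusted p = 0.014) and was at -0.32 ± 0.07 in Tat+/Meth against Tat−/Meth (adjusted p = 0.00136). Ece2, an endothelin-converting enzyme, had an interaction of -0.76 ± 0.16 (adjusted p = 0.00137). Of 9 genes for receptors of apolipoproteins and lipid transporters, 3 were higher and 1 lower, beside the same shares of all genes. Lrpap1, a chaperone of the receptors, was higher by 0.28 ± 0.06 (adjusted p = 0.000571) and Abca1, which loads lipid onto apolipoproteins, by 0.38 ± 0.10 (adjusted p = 0.00313). Between Tat+/Meth and Tat−/Meth Lrpap1 was at -0.31 ± 0.06 (adjusted p = 0.000219) and the receptor gene Vldlr at -0.34 ± 0.08 (adjusted p = 0.00211), and the interaction passed for Lrpap1 (-0.41 ± 0.08, adjusted p = 0.000696) and for the receptor gene Lrp8 (0.33 ± 0.12, adjusted p = 0.0348). The Lrp8 call failed in 11 of the 20 fits that each omitted 1 array (adjusted p from 0.0523 to 0.0676), with median scaling (0.776), with quantile normalization (0.0729) and with the mean over its probes (0.142).

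Of 16 kinases and phosphatases that act on tau, 7 were higher with Meth in Tat− mice and 1 was lower, beside 34.3% and 15.1% of all genes. Mark2 was higher by 0.70 ± 0.12 (adjusted p = 0.000124), Fyn by 0.34 ± 0.05 (adjusted p = 5.55e-05) and Cdk5 by 0.26 ± 0.06 (adjusted p = 0.000831). Without scaling they were at 0.28, -0.08 and -0.16, so Mark2 alone of these kept its sign, and it did not pass there (adjusted p = 0.0585). Against Tat−/Meth, 5 of 16 were lower and 0 higher in Tat+/Meth, beside 37.7% and 15.7% of all genes. Cdk5 was at -0.39 ± 0.06 (adjusted p = 1.39e-05), Fyn at -0.31 ± 0.05 (adjusted p = 0.000127) and Mark2 at -0.55 ± 0.12 (adjusted p = 0.001). The interaction was -0.64 ± 0.17 for Mark2 (adjusted p = 0.0072), 0.33 ± 0.09 for Mark1 (adjusted p = 0.0094) and -0.29 ± 0.08 for Ppp2r2a, a regulatory subunit of a tau phosphatase (adjusted p = 0.0112).

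Of 8 other microtubule proteins 3 were higher with Meth in Tat− mice and 0 lower, beside 34.3% and 15.1% of all genes. Map2, the microtubule protein of dendrites, was higher by 0.24 ± 0.05 (adjusted p = 0.00115) and was at -0.22 ± 0.05 in Tat+/Meth against Tat−/Meth (adjusted p = 0.00189). The interaction passed for Map7 (-0.34 ± 0.10, adjusted p = 0.0157) and Map2 (-0.25 ± 0.08, adjusted p = 0.0158). Without scaling Map2 was at -0.18 in the first of these comparisons and at 0.12 in the second. The Map2 calls also rest on its brightest probe. With the mean over its probes Map2 was at 0.016 and 0.050 in these comparisons (adjusted p = 0.82 and 0.442, limma). In the interaction it was then at -0.027 (adjusted p = 0.808) and Map7 at -0.20 (adjusted p = 0.115), so none of these passed.

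The genes whose probes varied most like App across the 20 arrays, after group means were removed, were Stard13 (r = 0.86), Slc6a8 (r = 0.86), Epgn (r = 0.85), Mtmr2 (r = 0.83) and Adipor2 (r = 0.83), out of 15053 genes compared. The likest gene was Ubl7 for Aplp1 (r = 0.94), Tst for Aplp2 (r = 0.93), Anapc16 for Bace1 (r = 0.85), Ankrd13d for Psen2 (r = 0.71), Rufy1 for Apoe (r = 0.87), St8sia1 for Clu (r = 0.82) and Il1rap for Mapt (r = 0.88). Each is the highest of many values over arrays that share scaling and slides, and none is read as a relation.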

How the data were processed

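Total RNA from the brains of 20 mice was hybridised to one-colour Agilent mouse arrays, 5 arrays for each of 4 groups taken from the sample titles. The authors deposited the scanner output, in which each spot has a background-subtracted, linear intensity from Agilent Feature Extraction 10.7.3.1 per the file headers, and a table of linear intensity values per array, used as an alternative. Among probes printed once, 99.8% to 100% of its values per array equalled the scanner's background-subtracted signal with 1 constant added for the array, to within 1% or 0.1; 7831 of its values were below 1 and were set to 1 before the logarithm. The labels name the dye Cy3 and the study's methods Cy5. Of 62976 spots per array, 3671 were control spots; spots flagged as outliers (4278 over all arrays) were left out. The 75th percentile of an array was subtracted from its log2 intensities and the mean of the 20 percentiles added back, spots of a probe were averaged, and 31516 of 55681 probes with a mean of at least 6 (log2) in a group and values on at least 3 arrays of each group were tested. RefSeq names were found for 27656 probes. The brightest probe stood for a gene. Models with a mean per group were fitted over all probes with limma 3.58.1 (lmFit, eBayes; R 4.3.3), p-values were Benjamini-Hochberg adjusted over all probes tested, and a probe passed at an adjusted p under 0.05. The interaction is the Meth difference in Tat+ mice minus that in Tat− mice. The script was tested on simulated data. The number of arrays limits the precision. The members and lists were chosen with earlier results of these data known. All probes of the 8 genes are given. From each list, up to 3 genes per comparison were named, those with the smallest adjusted p among the genes that passed with groups that did not overlap (for the interaction, among those that passed). For App the 5 and for each other gene the 1 most correlated gene was named. Differences between probes of an array were added after the data were seen. Alternatives were other scalings, normexp background correction of the median spot signal (offset 50), the processed table, other probe rules, slide and replicate blocks, the methods' t-test and leaving out each array.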

Additional observations from a re-analysis of the deposited data

Results flagged for a closer look

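The response to Meth differed between Tat+ and Tat− mice (interaction, limma, adjusted p under 0.05) for Aplp2 (0.36) and Bace1 (-0.48) and for the second Mapt probe, A_55_P1954486 (-0.35). Among the genes of the lists, it differed for Apbb1 (-0.86), Ece2 (-0.76), Mark2 (-0.64), Bace2 (-0.62), Lrpap1 (-0.41), Apbb2 (-0.35), Map7 (-0.34), Ppp2r2a (-0.29), Adam10 (-0.26) and Map2 (-0.25), and with a positive sign for Sorl1 (0.44), Lrp8 (0.33) and Mark1 (0.33). Over all probes, 37% passed in the interaction. The calls of Adam10 and Lrp8 failed in 8 and 11 of the 20 fits that each omitted 1 array. Every call named here, the second Mapt probe included, was lost without scaling, with median scaling or with both. With median scaling Aplp2 was at 0.13 (adjusted p = 0.659, limma) and Bace1 at -0.71 (adjusted p = 0.0565). Without scaling Bace1 was at 0.0037 (adjusted p = 0.989). All differences named here rest on the Tat−/Meth arrays, which were alone on slide 1, so group and slide cannot be told apart.

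Of 60 groups of 5 values examined, 5 held an array that stood apart from the other 4 by Dixon's ratio, and chance gives about 1 in 20. The brightest Mapt probe was 15.34 on Tat+/Meth array 3 against 15.19 to 15.23 (ratio 0.769). The third Mapt probe, A_55_P2100155, was 13.45 on Tat−/Sal array 5 against 14.62 to 14.79 (ratio 0.873), and 14.16 on Tat−/Meth array 5 against 14.74 to 14.94 (ratio 0.745). App minus Aplp2 was 0.46 on Tat−/Meth array 5 against 0.79 to 0.87 (ratio 0.802), and Aplp1 minus Aplp2 was 0.70 on Tat+/Meth array 4 against 0.92 to 0.98 (ratio 0.769). Tat−/Meth array 5 also had the highest share of probes well above background of all 20 arrays, 70.9%.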

How the results depend on the processing

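The number of the 8 genes that passed in Tat−/Meth against Tat−/Sal was 4, and became 1 with median scaling and 0 with a 2-fold limit; without scaling it was 6, all lower, and over the fits that left out 1 array 2 to 4 (2 without Tat−/Sal mouse 1). Between Tat+/Meth and Tat−/Meth it was 3, and became 5 without scaling, 5 with quantile normalization, 1 with median scaling and 0 with a 2-fold limit (2 to 4 with 1 array left out). For the interaction it was 2, and became 0 with median scaling, 5 with quantile normalization, 5 with slide as a random block and 0 with a 2-fold limit (2 to 3 with 1 array left out). With Tat alone it was 0, and became 2 with slide as a random block (Apoe and Clu) and 3 with the methods' unadjusted t-test (0 to 1 with 1 array left out). Tat+/Meth against Tat−/Sal rose from 0 to 3 with that t-test, and Tat+/Meth against Tat+/Sal stayed at 0 in all fits run. The random block had a negative correlation within slides, -0.059, which narrows the SE of differences between slides. For App with Tat alone the SE was 0.055 with this block and 0.067 without. Over all probes, 2991 of 31516 passed with Tat alone under this block, against 223 without it. The added calls under this block are therefore not calls made allowing for a slide effect. With median scaling Tat−/Meth array 5 lay below arrays 1 to 4 of its group for each of the 8 genes. App was 15.55 on it against 16.70 to 16.98, and Apoe 16.85 against 17.85 to 18.04. For App in Tat−/Meth against Tat−/Sal the SE was 0.185 with median scaling and 0.067 with the scaling used above. The part of this array in the calls lost with median scaling was not tested. The cause of the other shifts was not tested either.

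Over all probes, 15840 passed in Tat−/Meth against Tat−/Sal (44.2% of them lower) and 29625 with normexp (19.3% lower). Between Tat+/Meth and Tat−/Meth 16861 passed (56.6% lower), with 26859 under normexp (78.1% lower) and 13543 without scaling (5.11% lower). With median scaling 13513 passed there and with quantile normalization 17401. The interaction had 11666 (48.8% negative), against 7292 with median scaling, 17335 with normexp (74.7% negative) and 13705 without scaling (1.0% negative). It had 12122 with quantile normalization and 14585 with slide as a random block. Tat alone had 223, against 83 without scaling, 4 with median scaling, 4 with the processed table and 0 with normexp.

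Without scaling the following changed sign. In Tat−/Meth against Tat−/Sal these were App (-0.38), Apoe (-0.32), Clu (-0.23), the second Mapt probe A_55_P1954486 (-0.12), Fyn (-0.083), Cdk5 (-0.16), Apba1 (-0.17), Rtn3 (-0.16), Lrpap1 (-0.14), Abca1 (-0.046), Map2 (-0.18), Aph1b (-0.035) and Pitrm1 (-0.19). In Tat+/Meth against Tat−/Meth they were App (0.15), Clu (0.29), the second Mapt probe (0.024), Fyn (0.030), Sort1 (0.014), Apba1 (0.057), Lrpap1 (0.033), Pitrm1 (0.020) and Map2 (0.12). In the interaction they were Aplp1 (0.45), Bace1 (0.0037), the second Mapt probe A_55_P1954486 (0.14), Apbb2 (0.13), Lrpap1 (0.080), Ppp2r2a (0.20), Map7 (0.15), Map2 (0.24) and Adam10 (0.22). The mean over a gene's probes turned Mapt in Tat−/Meth against Tat−/Sal (0.11) and Map2 between Tat+/Meth and Tat−/Meth (0.050), and quantile normalization turned Apoe between Tat+/Meth and Tat−/Meth (-0.34). A further 48 values under these alternatives, and 34 with 1 array left out, changed sign without passing before or after. Slide as a fixed block could be fitted only for comparisons without Tat−/Meth.

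Groups share replicate numbers. Arrays with the same number deviated together only weakly (30 pairs, r from -0.14 to 0.31, median 0.06, 9 of 30 over 0.1). Arrays with different numbers had r from -0.37 to 0.22 (120 pairs, median -0.01, 20 of 120 over 0.1). These low values do not show that the numbers pair the mice, and they cannot exclude it. With the replicate block 4 genes passed in Tat−/Meth against Tat−/Sal, 4 between Tat+/Meth and Tat−/Meth (Mapt added), 3 in the interaction (Mapt added) and 0 in the other 3 comparisons. Of all 31516 probes, 16413 passed with this block in Tat−/Meth against Tat−/Sal and 17377 between Tat+/Meth and Tat−/Meth. In the interaction 12209 passed, and with Tat alone 586.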
